A study of Homo sapiens with 5 samples.

Results

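The epidermal growth factor (EGF) family and its receptors were examined in mammary epithelial cells that depend on EGF for growth, with and without a guide RNA that activates the gene JUN. The group comprised 10 genes chosen by symbol: the ligand genes TGFA, AREG, EREG, HBEGF, BTC and NRG1, the receptor genes EGFR, ERBB2 and ERBB3, and ERRFI1, whose product restrains the receptors. All 10 were found among the 23459 genes of the count table, by matching Entrez identifiers to NCBI gene names, and all 10 had enough counts to be tested.

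The cells were MCF10A SAM cells. MCF10A is an immortalised, non-tumorigenic line of human mammary epithelium. SAM (Synergistic Activation Mediator) cells are clones of it, grown from single cells, in which dCas9-VP64 and MCP-p65-HSF1 are brought by a guide RNA to the promoter of a chosen gene. Both groups carried these activators and grew in medium with 5% horse serum, insulin, hydrocortisone, cholera toxin and 20 ng/ml of human EGF, so every library came from cells already supplied with a ligand of EGFR. The control group had a non-targeting guide (NTC, 3 libraries), and the other had sgJUN#1, a guide to the JUN promoter (2 libraries). No cultures with a second guide or without the activators were analysed here, and the labels do not say whether replicates were separate infections or clones. The paper calls the replicates of its RNA comparison of a JUN guide with a non-targeting guide biological, without saying how they were separated. It states fewer replicates than there are NTC libraries here, and does not say which were used. If replicates were not separate infections or clones, the p-values below measure only the spread between these libraries, which may be technical.

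EGF-family ligands are made as precursors in the cell membrane and are cut loose by ADAM proteases. TGF-alpha (TGFA), amphiregulin (AREG) and epiregulin (EREG), heparin-binding EGF (HBEGF) and betacellulin (BTC) activate the EGF receptor, and neuregulin 1 (NRG1) binds ERBB3 and ERBB4. Ligand binding lets the receptors pair, ERBB2 being the partner that has no ligand of its own, and starts signalling through RAS and ERK and through PI3K and AKT. ERRFI1, also called MIG6, is induced by that signalling, binds the kinase domain of the receptors and brakes them. JUN is a subunit of AP-1, a transcription factor to which growth factor signalling leads.

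Library totals ran from 2455627 to 4988062 counts, and a count of 0 allowed up to 3 counts, or between 0.601 and 1.22 counts-per-million (CPM). CPM here are counts scaled to a common library size with TMM factors. JUN, the targeted gene, stood at 25.0, 36.2 and 9.32 CPM in NTC replicates 1 to 3 and at 171.5 and 265.5 CPM in libraries 1 and 2 of sgJUN#1, so both activated libraries lay well above every control. With edgeR's quasi-likelihood test its log2 fold change was 3.25 (SE 0.484, adjusted p = 0.0733), short of the threshold of 0.05 used here, which JUN passed with DESeq2 (adjusted p = 4.08e-11) and limma-voom (adjusted p = 0.0342). NTC replicate 3 stood apart from the other libraries: its log2 CPM correlated with theirs across genes at 0.923 to 0.951, whereas the other libraries correlated with each other at 0.952 to 0.970. Of 10 markers of mammary epithelium 8 had at least 10 counts in every library, and the summed level of the 10 was 1009 to 1600 CPM in NTC and 853.7 to 2059 CPM with sgJUN#1. Of the basal markers among them KRT5 had 151.7 to 454.3 CPM and ITGA6 80.7 to 97.0 CPM over the 5 libraries, whereas KRT14 had 0.826 to 3.26 CPM and TP63 3.10 to 7.51 CPM. KRT17 had 0, 4.48 and 5.99 CPM in NTC and 16.3 and 7.87 CPM with sgJUN#1, above all controls but short of the threshold (edgeR's adjusted p = 0.628). KRT14 went the other way, with 2.20, 3.26 and 2.88 CPM in NTC and 0.826 and 1.79 CPM with sgJUN#1 (edgeR's adjusted p = 0.660). KRT6A, the highest of the 10 markers in every library, had 465.4, 748.1 and 616.6 CPM in NTC and 1289 and 398.2 CPM with sgJUN#1. ITGA6 and CDH3 lay above all controls with sgJUN#1, and CDH1 overlapped. Of 6 fibroblast markers only DCN had 10 counts in every library, at 22.8, 26.5 and 87.8 CPM in NTC and 27.2 and 49.0 CPM with sgJUN#1. The 3 endothelial markers together reached at most 10.99 CPM, and of 4 blood markers CD3E had no count and CD14 alone was tested, with 7.98, 1.63 and 23.7 CPM in NTC and 6.19 and 4.29 CPM with sgJUN#1. Among the epithelial markers EPCAM had 23.7, 7.33 and 23.3 CPM in NTC and 143.9 and 56.5 CPM with sgJUN#1, and the integrin gene ITGB4 had 118.8, 47.6 and 292.3 CPM against 26.4 and 26.1, neither passing the threshold. In such bulk libraries a lower level of a gene can come from fewer cells that express it or from less RNA in each cell, which cannot be told apart. What part NTC replicate 3 or these markers have in the values below was not tested.

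To ask whether raised JUN went with a different supply of ligands, receptors or brakes, each gene was tested within one fit over all 13616 genes with enough counts. None of the 10 genes passed an edgeR adjusted p-value under 0.05, the threshold that 0.206% of all tested genes passed, and none passed it with DESeq2 or limma-voom either. A p-value under 0.05 before adjustment was reached by 5, namely ERRFI1, ERBB2 and EGFR's ligand genes EREG, AREG and TGFA, where 8.38% of all tested genes reached that level. The CPM of the groups did not overlap for 5 of the 10, against 25% of all tested genes: TGFA and EREG in both sgJUN#1 libraries lay above every control, as 12.2% of tested genes did, and EGFR, ERBB2 and ERRFI1 lay below, as 12.8% did. The 10 genes were chosen with earlier results of these libraries known, so these shares describe them and do not test them. Over the 10 genes 5 log2 fold changes were above 0 and 5 below, with a median of 0.06, beside -0.01 over all tested genes.

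**Figure D1:**
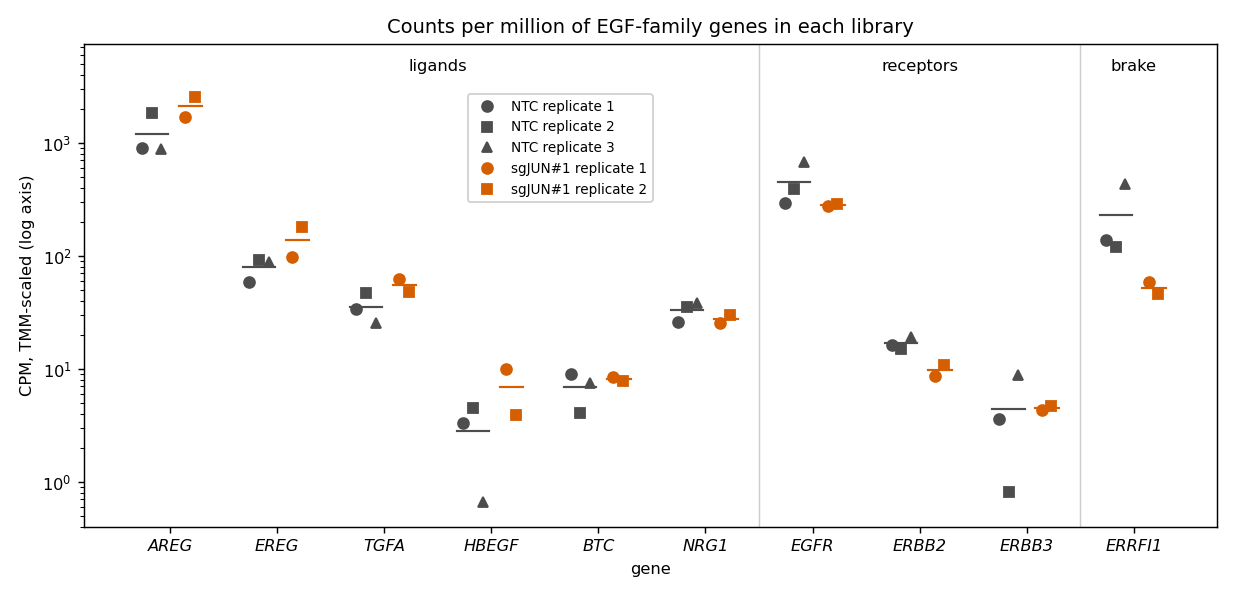
Level of each gene in each library, as CPM on a log axis, with NTC libraries in grey and sgJUN#1 libraries in orange; marker shapes give the replicate number and horizontal lines the group means. AREG lies far above the other ligand genes in every library, and the control values of ERRFI1 and EGFR are spread by NTC replicate 3, at 429.0 and 673.4 CPM.

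AREG and EREG are neighbours in a cluster of ligand genes on chromosome 4 (GRCh37, the build called hg19), with EREG at 75230862 to 75254466, AREG at 75310853 to 75320722 and BTC at 75669969 to 75719733. Amphiregulin is a self-made growth factor of mammary epithelium. AREG stood at 902.7, 1820 and 888.8 CPM in NTC replicates 1 to 3 and at 1705 and 2552 CPM in libraries 1 and 2 of sgJUN#1. The groups overlapped, since NTC replicate 2 lay above sgJUN#1 replicate 1, whereas the other controls were alike. The mean went from 1204 ± 533.5 CPM (SD, n = 3) to 2128 ± 599.0 CPM (SD, n = 2), which was a log2 fold change of 0.82 (edgeR's adjusted p = 0.550, SE 0.330). Without NTC replicate 2 it was 1.25 and without sgJUN#1 replicate 2 it was 0.51, with no call in either case. The exact permutation test of the CPM of AREG gave a two-sided p = 0.3, where 0.1 is the smallest value that these group sizes permit.

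AREG has a limit of its own in this build. GRCh37 holds a near-identical copy, AREGB, at chromosome 4, 75480629 to 75490486. Of 451 windows of 50 bases over the last 500 bases of AREG, where 3′ reads fall, 401 (88.9%) occurred unchanged in the copy. AREGB had no row in the table used here, and the rule by which reads with more than one placement were counted is not given in the sources used here. The counts of AREG may thus hold reads of both copies or lack reads that fit both, and which of these applies was not tested.

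EREG, which encodes epiregulin, had fewer counts than AREG and a log2 fold change of like size. Its level was 58.3, 91.6 and 88.7 CPM in NTC and 97.4 and 180.0 CPM with sgJUN#1. Both sgJUN#1 libraries were above all controls, but sgJUN#1 replicate 1 only narrowly. The log2 fold change was 0.80 (SE 0.295, edgeR's adjusted p = 0.496, exact two-sided permutation p = 0.1). It rested largely on sgJUN#1 replicate 2, without which it was 0.30. The counts of AREG exceeded those of EREG by 10.0 to 19.9 times in NTC and by 14.2 to 17.5 times in sgJUN#1, so the balance between the neighbours was within the control range in both activated libraries.

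The regions just before the start sites of AREG and EREG, together with those of JUN and ERRFI1, are shown because AREG and EREG had like differences, ERRFI1 had the largest difference of the group and the JUN promoter was the target of the guide. Each run is the 250 bases before the start site in the gene's own direction, from the NCBI RefSeq promoter table (GRCh38.p14), with its position found by exact match in GRCh37. Capitals mark matches to TGACNTCA on either strand, the form of the cyclic-AMP response element that ATF and JUN dimers recognise.
JUN, chr1:59249720-59249969, minus strand: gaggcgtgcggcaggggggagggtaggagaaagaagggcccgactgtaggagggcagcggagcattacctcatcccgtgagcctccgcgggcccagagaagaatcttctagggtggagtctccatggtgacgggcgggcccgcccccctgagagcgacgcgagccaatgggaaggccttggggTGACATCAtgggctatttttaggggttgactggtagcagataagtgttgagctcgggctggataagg
AREG, chr4:75310603-75310852, plus strand: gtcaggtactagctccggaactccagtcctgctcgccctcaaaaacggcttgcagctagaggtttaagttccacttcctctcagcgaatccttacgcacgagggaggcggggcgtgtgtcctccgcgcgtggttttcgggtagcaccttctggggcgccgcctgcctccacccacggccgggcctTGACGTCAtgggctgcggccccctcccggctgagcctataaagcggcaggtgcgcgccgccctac
EREG, chr4:75230612-75230861, plus strand: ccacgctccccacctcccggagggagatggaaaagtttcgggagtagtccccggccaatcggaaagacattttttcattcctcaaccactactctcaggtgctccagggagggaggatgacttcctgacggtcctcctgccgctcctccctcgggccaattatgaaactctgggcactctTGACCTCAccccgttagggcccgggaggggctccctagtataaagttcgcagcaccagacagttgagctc
ERRFI1, chr1:8086370-8086619, minus strand: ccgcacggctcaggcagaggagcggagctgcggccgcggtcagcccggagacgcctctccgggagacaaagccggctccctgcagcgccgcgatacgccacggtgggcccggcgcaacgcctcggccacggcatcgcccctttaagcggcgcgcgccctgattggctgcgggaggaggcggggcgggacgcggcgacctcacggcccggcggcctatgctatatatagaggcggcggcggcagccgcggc
The letters TGACGTCA ended 58 bases before the start of AREG, TGACCTCA 63 bases before that of EREG and TGACATCA 60 bases before that of JUN, while the ERRFI1 window held no match. Of 35116 promoters in all, 6.87% held such a match in the same 250 bases. The table had entries for 8 of the 10 genes, NRG1 and ERBB3 having none, and AREG and EREG were the 2 with a match. These 8 genes had 10 windows, and the shares over all promoters count windows, not genes. The pattern TGANTCA, which does not overlap TGACNTCA, allows any base at the centre of the AP-1 site. It occurred in 6.57% of all promoters and in 2 of the 8 genes, ERBB2 and EGFR. In ERBB2 the match read TGATTCA, without the C or G that the AP-1 site has at its centre. The EGFR window with matches starts at 55177282, inside the gene, and the window just before the gene start had none. The TEAD core GGAATG, searched on both strands, occurred in 11.9% of all promoters, in EREG and in the EGFR window inside the gene. The motifs were chosen after earlier results were known, and a match in letters says nothing of binding. The whole AREG run occurred at 2 places on chromosome 4, as the AREGB copy shares it.

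The remaining ligand genes had lower levels. TGFA (chromosome 2, 70674416 to 70781325) encodes TGF-alpha, which like EGF binds EGFR alone. It had 33.6, 47.2 and 25.3 CPM in NTC and 62.5 and 47.9 CPM with sgJUN#1, so the nearest values of the groups, 47.2 and 47.9, all but touched. The log2 fold change was 0.66 (SE 0.279, edgeR's adjusted p = 0.569). HBEGF (chromosome 5, 139712428 to 139726188), a ligand that also binds heparan sulfate, rested on few reads: 12, 11 and 3 counts in NTC and 48 and 11 in sgJUN#1. In CPM that was 3.30, 4.48 and 0.665 against 9.91 and 3.94, with sgJUN#1 replicate 2 inside the control range. Its log2 fold change of 1.46 (edgeR's adjusted p = 0.601, SE 0.652) was 0.58 without sgJUN#1 replicate 1 and 0.92 without NTC replicate 3, and NTC replicate 3 was at the floor of 3 counts.

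BTC and NRG1 overlapped between the groups. BTC had 9.08, 4.07 and 7.54 CPM in NTC and 8.46 and 7.87 CPM with sgJUN#1, on 10 to 41 counts, with a log2 fold change of 0.21 (SE 0.382) that turned to -0.017 without NTC replicate 2. NRG1, a gene of 1216447 bases on chromosome 8, had 25.9, 35.4 and 38.2 CPM in NTC and 25.4 and 30.1 CPM with sgJUN#1, with a log2 fold change of -0.26 (edgeR's adjusted p = 0.821, SE 0.251). One activated library lay just below the lowest control of NRG1 and the other among the controls. The value hung on single libraries, at -0.42 without NTC replicate 1 and at -0.14 without NTC replicate 3 or without sgJUN#1 replicate 1. Where genes are counted over their whole span, a gene of that length can gather reads from within introns, and how these were handled is not given in the sources used here.

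The 6 ligand genes together had 1033, 2002 and 1049 CPM in NTC and 1908 and 2822 CPM with sgJUN#1, and NTC replicate 2 again lay between the activated libraries. AREG supplied 84.7% to 90.9% of these counts in NTC and 89.3% to 90.4% in sgJUN#1. Counts from 3′ ends depend little on transcript length, but a share of counts is not a share of protein. Without AREG the sum was 130.1, 182.7 and 160.4 CPM in NTC and 203.7 and 269.8 CPM with sgJUN#1, so the groups no longer overlapped. No test is given for these sums, because their genes were chosen with earlier results of these libraries known.

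**Figure D2:**
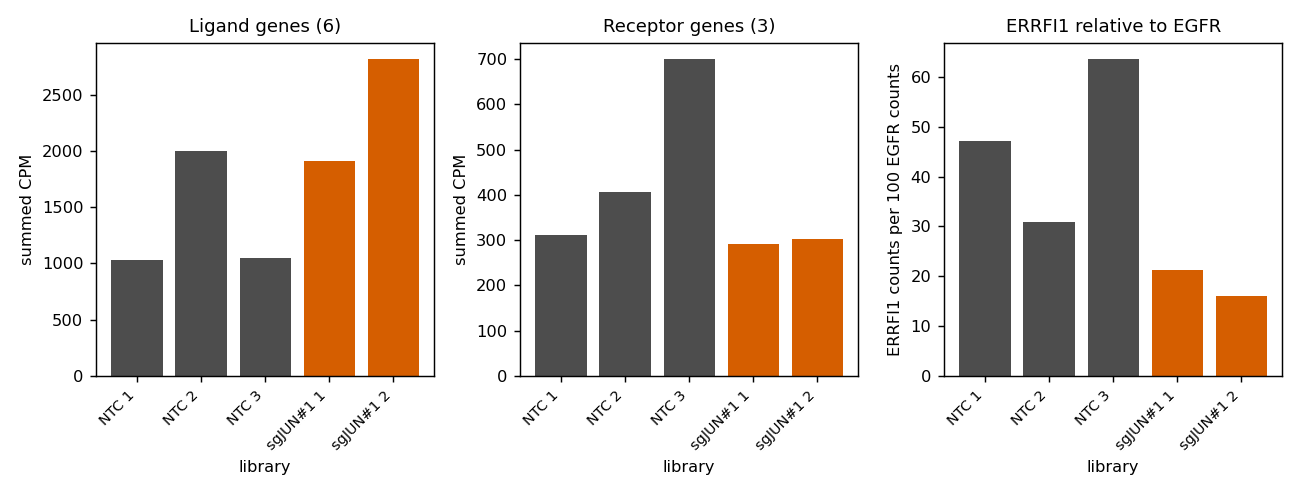
Summed CPM of the 6 ligand genes (left) and of the 3 receptor genes (middle), and ERRFI1 counts per 100 EGFR counts (right), 1 bar per library, with NTC in grey and sgJUN#1 in orange and all axes from 0. Ligand sums overlap between the groups through NTC replicate 2 at 2002 CPM. Receptor sums are lowest in sgJUN#1 at 291.0 and 302.7 CPM, just below NTC replicate 1 at 310.5 CPM. NTC replicate 3 has the highest receptor sum, 701.6 CPM. Both sgJUN#1 libraries have fewer ERRFI1 counts per EGFR count than every control.

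Among the receptors EGFR (chromosome 7, 55086710 to 55279321) carried nearly all counts, from 93.6% to 96.1% of the receptor sum over the 5 libraries. EGFR stood at 290.7, 389.5 and 673.4 CPM in the NTC libraries and at 278.0 and 287.3 CPM with sgJUN#1. The groups did not overlap, but NTC replicate 1 and sgJUN#1 replicate 2 were close. The mean was 451.2 ± 198.7 CPM under NTC (SD, n = 3) and 282.7 ± 6.57 CPM with sgJUN#1 (SD, n = 2), giving a log2 fold change of -0.68 (edgeR's adjusted p = 0.634, SE 0.325). Most of it came from NTC replicate 3, without which the log2 fold change was -0.27. EGFR-AS1, an antisense RNA inside EGFR, had 12 to 71 counts and cannot be told apart from EGFR reads unless strand was used in counting.

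ERBB2 (chromosome 17, 37844167 to 37886679), the receptor that joins the others as a partner, had 16.2, 15.1 and 19.3 CPM in NTC and 8.67 and 10.7 CPM with sgJUN#1. Every control lay above both activated libraries, and the gap did not hang on NTC replicate 3. The log2 fold change was -0.82 (SE 0.284, edgeR's adjusted p = 0.459, exact two-sided permutation p = 0.1), from -0.96 to -0.66 when any single library was dropped. The counts were small, 37 to 87 in NTC and 30 and 42 in sgJUN#1. ERBB2 shares 1931 bases at its 3′ end with MIEN1 on the opposite strand, which had 53 to 149 counts, so without strand some reads could belong to either gene.

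ERBB3 (chromosome 12, 56470583 to 56497289), the main neuregulin receptor of epithelium, was near the limit of detection. It held 13, 2 and 40 counts in NTC and 21 and 13 in sgJUN#1, or 3.58, 0.814 and 8.87 CPM against 4.33 and 4.65. The activated libraries were thus inside the control range, and the log2 fold change of -0.09 (SE 0.672) changed sign without NTC replicate 3, to 0.89. A difference in ERBB3 was not detectable with counts this low and controls this far apart.

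ERRFI1 (chromosome 1, 8064464 to 8086369) showed the largest difference of the 10 genes. It stood at 137.0, 120.1 and 429.0 CPM in the NTC libraries and at 58.8 and 45.8 CPM with sgJUN#1. Both activated libraries lay well below the lowest control, and NTC replicate 3 was far above the other controls. The mean was 228.7 ± 173.7 CPM under NTC (SD, n = 3) and 52.3 ± 9.21 CPM with sgJUN#1 (SD, n = 2), giving a log2 fold change of -2.13 (SE 0.609) or 4.37-fold lower, with edgeR's adjusted p = 0.397. The high control widened the spread as well as the difference. Without NTC replicate 3 the log2 fold change was smaller, -1.29 (SE 0.210), and ERRFI1 passed the threshold (edgeR's adjusted p = 0.0263), in a fit where 0.439% of all tested genes passed. Without NTC replicate 1 it was -2.39 and without NTC replicate 2 it was -2.43, and it passed in neither fit, where 0.0742% and 0.413% of genes did. With replicate numbers as a replicate block, a fit in which NTC replicate 3 has no partner and 0.756% of genes passed, it was -1.30 and passed (edgeR's adjusted p = 0.0110). Having a block term of its own, NTC replicate 3 adds nothing to the group difference there, so both passing fits compare the same libraries. The exact two-sided permutation test of the CPM of ERRFI1 gave p = 0.3.

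ERRFI1 and EGFR were both highest in NTC replicate 3, where JUN was lowest, so their ratio was also taken, which does not depend on the scaling of libraries. Per 100 EGFR counts there were 47.1, 30.8 and 63.7 ERRFI1 counts in NTC and 21.2 and 15.9 in sgJUN#1. Each activated library had fewer than any control, a mean of 18.5 ± 3.69 (SD, n = 2) against 47.2 ± 16.4 (SD, n = 3). The ratio of the group means was 0.393, and from 0.335 to 0.476 when single libraries were left out. Ligand counts per receptor count were 3.33, 4.94 and 1.495 in NTC and 6.56 and 9.32 in sgJUN#1, again without overlap. For these the ratio of the group means was 2.44, and from 1.92 without NTC replicate 3 to 3.29 without NTC replicate 2. Most ligand counts were of AREG, whose own levels overlapped between the groups. Both ratios are descriptions, with no test.

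**Figure D3:**
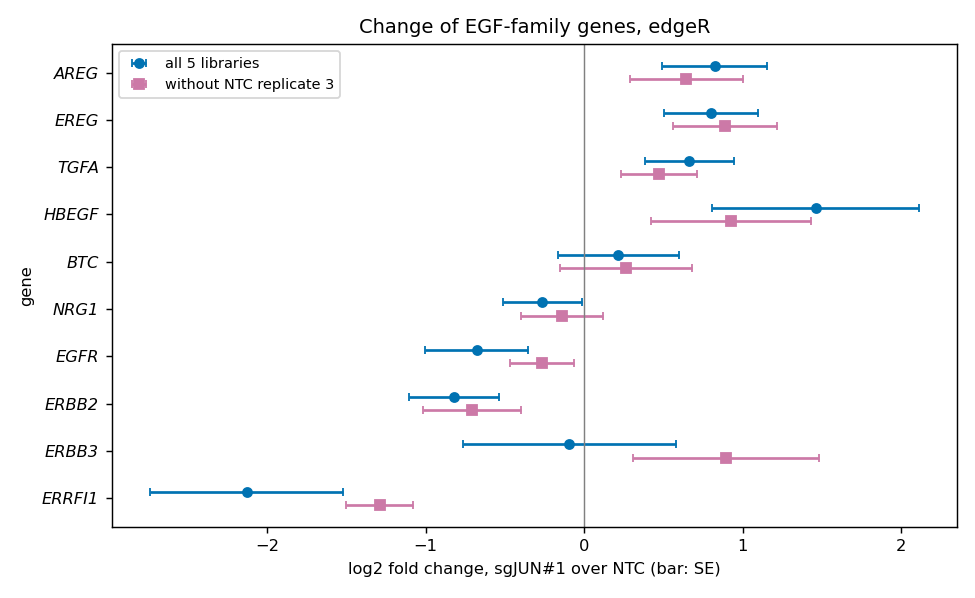
Log2 fold change of sgJUN#1 over NTC for the 10 genes, with bars of 1 SE, in edgeR's fit to all 5 libraries (blue circles) and without NTC replicate 3 (pink squares). ERRFI1 moves from -2.13 to -1.29 with a shorter bar, EGFR from -0.68 to -0.27, and ERBB3 crosses 0.

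The other EGF-family genes were placed beside these. Of EGF, EPGN, NRG2, NRG3, NRG4 and ERBB4 all 6 were tested and none passed the threshold, 1 being higher and 5 lower, with a median log2 fold change of -0.18. The one that was higher was EPGN, which encodes epigen, another EGFR ligand, and lies at 75174187 to 75182506 in the same cluster of chromosome 4. EPGN had 30.0, 50.1 and 28.8 CPM in NTC and 58.4 and 64.4 CPM with sgJUN#1, with both activated libraries above all controls. Its log2 fold change was 0.77 (SE 0.269, edgeR's adjusted p = 0.459). Thus 3 of the 4 genes of the cluster, EPGN, EREG and AREG, had log2 fold changes between 0.77 and 0.82, and the fourth, BTC, had 0.21. The 4 genes share libraries, so that their likeness is not independent evidence. NRG2, a neuregulin, had 2.85 to 11.1 CPM in NTC and 3.30 and 7.51 CPM with sgJUN#1, with a log2 fold change of -0.33 (SE 0.592) whose direction changed between fits. The transcript of EGF itself was at 1.65 to 5.102 CPM in the NTC libraries and at 3.51 and 1.79 CPM with sgJUN#1, in cells that received EGF from the medium.

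Of 9 genes that shed or carry the ligands none passed, 2 being higher and 7 lower, with a median log2 fold change of -0.16. ADAM17, the chief protease that releases these ligands, had 61.9, 58.6 and 73.2 CPM in NTC and 68.3 and 60.1 CPM with sgJUN#1, with a log2 fold change of -0.01 (SE 0.203). FRMD8, which binds the iRhom partners of ADAM17 and keeps them stable, differed most. It had 50.3, 55.4 and 42.6 CPM in NTC and 117.0 and 100.2 CPM with sgJUN#1, with both activated libraries well above all controls. The log2 fold change was 1.14 (SE 0.203, edgeR's adjusted p = 0.0854), and FRMD8 passed with DESeq2 (adjusted p = 0.0042), as 1.05% of genes did, and without a filter. ADAM15, another membrane protease, had 82.5, 92.0 and 136.0 CPM in NTC and 63.0 and 47.6 CPM with sgJUN#1 (log2 fold change -0.90, SE 0.266, edgeR's adjusted p = 0.351), and its log2 fold change was -0.65 without NTC replicate 3.

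Of 13 brakes and turnover genes of the receptors other than ERRFI1 none passed, with a median log2 fold change of -0.08. SOCS4, which encodes a suppressor that binds EGFR, had 32.5, 29.3 and 32.8 CPM in NTC and 57.0 and 50.4 CPM with sgJUN#1, higher in both activated libraries (log2 fold change 0.77, SE 0.203, edgeR's adjusted p = 0.281). LRIG2 had 4.95 to 10.99 CPM in NTC and 4.95 and 4.29 CPM with sgJUN#1 (log2 fold change -0.83, SE 0.424). CBL, the ubiquitin ligase that sends EGFR to degradation, differed by -0.02 (SE 0.189). The largest difference among brakes was therefore in ERRFI1 and not in this list.

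Below the receptors, the 16 adaptors and RAS-ERK genes had log2 fold changes from -0.35 to 0.30, with 8 above 0 and 8 below, a median of 0.00 and none passing the threshold. The extremes by size were BRAF (-0.35, SE 0.304) and SOS1 (-0.31, SE 0.232). Both rested on NTC replicate 3, without which BRAF was at -0.040 and SOS1 at -0.10. Of 15 genes of the PI3K-AKT and other arms 14 were tested, STAT5A having too few counts, and 11 were lower and 3 higher, with a median of -0.26 and none passing. PIK3R1, the regulatory subunit of PI3K, had 169.7, 190.9 and 298.3 CPM in NTC and 105.5 and 119.5 CPM with sgJUN#1, a log2 fold change of -0.97 (edgeR's adjusted p = 0.299, SE 0.268). Every control of PIK3R1 lay above both activated libraries, and NTC replicate 3 was again highest. Without it the log2 fold change of PIK3R1 was -0.68. STAT5B had a log2 fold change of -0.73 (edgeR's adjusted p = 0.604, SE 0.330), which was -0.48 without NTC replicate 3.

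**Figure D4:**
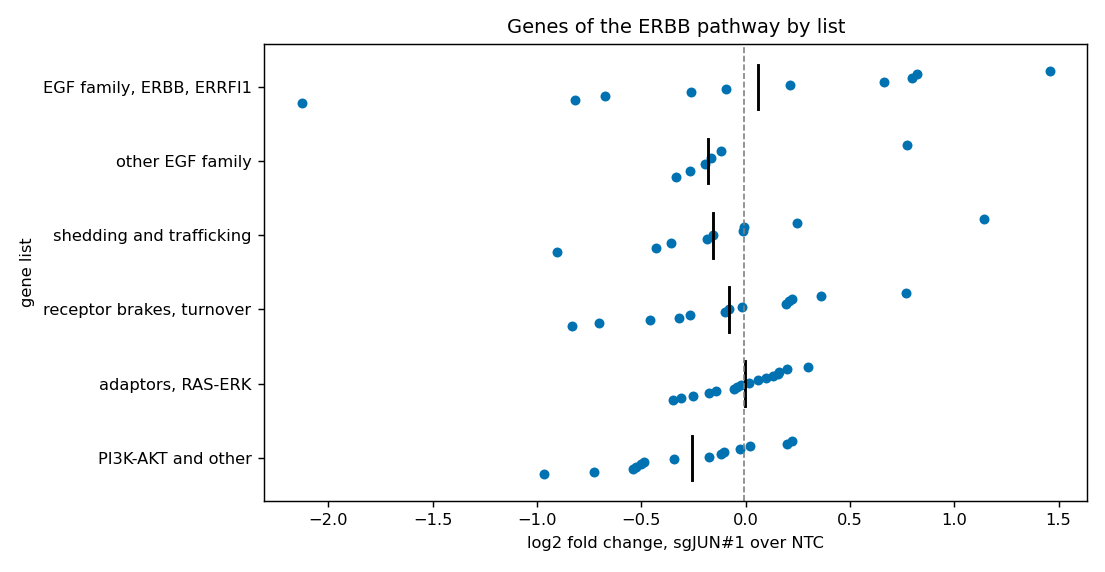
Log2 fold change of sgJUN#1 over NTC for each tested gene of the 10-gene group and of 5 further lists of the pathway; each point is 1 gene, black bars are list medians and the dashed line is the median over all tested genes, -0.01. ERRFI1 at -2.13 and HBEGF at 1.46 lie outermost, and the 16 adaptors and RAS-ERK genes lie between -0.35 and 0.30.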

How the data were processed

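The deposited values were raw counts per gene, not normalised. Per the labels, RNA from each culture (0.5 µg) was made into QuantSeq 3′ mRNA-Seq libraries (forward version), and the submitters' processing notes name cutadapt 4.2, Bowtie2 2.3.5.1 and hg19. The counting tool, gene annotation, strand, multiple placements and molecular identifiers are not given in the sources used here, so depth limits cover counting error only. Symbols came from NCBI RefSeq (GRCh38.p14, names only; 23308 of 23459 matched) and positions from GENCODE version 44 on GRCh37.

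Groups and replicate numbers came from sample titles. Counts were tested with edgeR 4.0.16 (R 4.3.3; quasi-likelihood F test, robust, TMM, filterByExpr, group as only term), with Benjamini-Hochberg adjustment over 13616 genes and a threshold of 0.05. The SE is the log2 fold change over the square root of F. DESeq2 1.42.0, limma 3.58.1 (voom), other scalings and filters, a replicate block and leaving out single libraries were alternatives. The procedure was also run on simulated counts with the same dispersion for all genes and no outlying library. That run cannot show how the test behaves on libraries such as NTC replicate 3. Libraries within a group differed beyond counting noise (chi-square per degree of freedom 7.62 to 18.4).

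The 10 genes and the lists were chosen with earlier results of these data known. Named genes were JUN, the 10 genes, and from each pathway list those past the threshold and otherwise the 2 largest by absolute log2 fold change. ADAM17, EGF and CBL were added after their values were seen, for their role in the pathway.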

Additional observations from a re-analysis of the deposited data

How the results depend on the processing

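The 28 genes called over all tested genes became 143 with DESeq2, 148 with no filter, 18 where each library had to hold 10 counts, 103 with the replicate block and 10 (without NTC replicate 1) to 57 (without NTC replicate 3, and 56 without NTC replicate 2) when single libraries were left out. Of the 10 EGF-family genes 0 were called in the fit to all libraries, 1 with the replicate block and 0 to 1 when single libraries were left out. That gene was ERRFI1, at -1.30 (edgeR adjusted p = 0.0110) with the block and -1.29 (0.0263) without NTC replicate 3. It passed in these 2 of 12 alternatives, and with no filter its edgeR adjusted p was 0.706. Both passing fits keep NTC replicate 3 out of the group difference, so they are not separate support. The log2 fold change of ERRFI1 ran from -2.43 to -1.29 over the 12. Fits without an sgJUN#1 library leave 1 activated library, so no p-value is given for them. JUN passed with DESeq2 (3.24), limma-voom (3.47) and the replicate block (2.82), and ran from 2.84 to 3.68 when single libraries were left out. Its call came without NTC replicate 2 or 3. ERBB3 turned to 0.27 with limma-voom and 0.94 with the block and ran from -0.50 to 0.89 without single libraries. BTC ran from -0.017 to 0.44. NRG2 turned to 0.35 with the block and ran from -0.96 to 0.40. The block values of ERBB3 and NRG2 lay near those without NTC replicate 3, 0.89 and 0.40. The block also keeps that library out of the group difference. The cause of the other shifts was not tested. TGFA, AREG, EREG, NRG1, EGFR, ERBB2 and ERRFI1 kept their direction in 12 alternatives and HBEGF in 11.

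Both groups have replicates numbered 1 and 2, with no label that ties a number to a shared day. In the submitters' own numbering of the libraries, equally numbered replicates of the groups are direct neighbours. NTC replicate 3 has no such neighbour, and what this order stands for is not stated. The replicate 1 minus 2 differences of the groups correlated at 0.0146 across genes. The samples were therefore not taken as pairs in the main fit, and the block was kept as an alternative. The block changed no other call among the 10 genes. AREG with its copy AREGB was not run, as AREGB had no row in the table used here. Alternatives for the pathway genes and for the sums were chosen after the data were seen. With 30 to 87 counts for ERBB2 and under 50 for HBEGF, BTC and ERBB3, depth limits those values.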
